A study of Mus musculus with 12 samples.

Results

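Mitochondrial ribosomal protein genes were taken as every row of the table whose mouse symbol began with Mrpl or Mrps followed by a digit, with pseudogenes left out. This rule gave 77 members, 48 Mrpl and 29 Mrps genes, out of 14004 genes. It used names alone and no measured value. All 77 passed the filter on low values (at least 3 libraries with a value of 10 or more), as did 13058 genes in all.

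RNA-seq was carried out on type 1 invariant natural killer T cells (iNKT1 cells), a CD1d-restricted T cell subset defined by the transcription factor T-bet, the product of Tbx21. Cells that bound CD1d tetramer and were YFP+ were collected from liver and thymus of mice of 2 genotypes. The conditional knockout (cKO) was Tbx21Cre, Rosa26-YFP+ and Ets1F/F, and the control was Tbx21Cre and Rosa26-YFP+, so that both carried the Cre and the reporter. Ets1 is a transcription factor, and its floxed alleles are cut only in cells that have expressed the Cre. The labels give neither age nor whether the 3 libraries of a group came from separate mice, so the p-values refer to variation among these samples only, and that may be technical. The 4 groups were cKO liver, control liver, cKO thymus and control thymus, with 12 libraries in all.

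Mitochondria keep their own ribosome, which makes the few proteins encoded by mitochondrial DNA, all of them subunits of the respiratory chain or of ATP synthase. Its rRNAs come from mitochondrial DNA, whereas its proteins are encoded in the nucleus, made in the cytosol and imported. Many of these proteins descend from bacterial ribosomal proteins and others were added in the mitochondrial lineage, and the roles given here are those seen in human and pig mitoribosomes. Activated T cells are known to raise mitochondrial translation as they grow and become effectors.

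Sorted by role, 29 members belonged to the large subunit and descend from bacteria, and 21 belonged to the large subunit and were added in mitochondria. The small subunit had 16 members kept from bacteria and 10 added in mitochondria. The remaining member, Mrps36, is now placed outside the ribosome, in the 2-oxoglutarate dehydrogenase complex. Mrps18a and Mrps30 keep small-subunit names but sit in the large subunit and were counted there.

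The members were scattered over 17 chromosomes of GRCm38, with at most 11 on one. A protein-coding gene on the other strand started within 1000 bp upstream or 200 bp downstream of the start of 23 members (29.9%), against 12.8% of the 11471 protein-coding genes in the table. Several of these partners also act in mitochondria. Mrps12, the decoding-centre protein, is paired with Sars2 (the mitochondrial seryl-tRNA synthetase), Mrps27 with Ptcd2 and Mrpl36 with the complex I gene Ndufs6. Mrps11 and Mrpl46 are both members. They lie on opposite strands of chromosome 7 and overlap at their starts, at 78783119 for Mrps11 and 78783531 for Mrpl46. No label states whether counting used strand. The reads of members that overlap another gene (25 of 77 overlap a protein-coding one, 32.5%, against 27.2% of protein-coding genes) are therefore uncertain where the exons overlap.

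RefSeq promoters of GRCm38.p6, from 250 bases before to 50 bases after the start, were at hand for 68 of the 77 members. Each was searched on both strands for the core letters bound by ETS factors (CCGGAAG, reverse complement CTTCCGG), by YY1 (AAGATGGC, reverse complement GCCATCTT) and by NRF1 (CGCATGCG, its own reverse complement). These are motifs that Ets1 and GABP (both ETS factors), YY1 and NRF1 are known to read, and none of the 3 letter strings contains another. Some genes, such as Mrpl48, had more than 1 promoter, and a gene was counted when any of its promoters held the letters. The ETS core was found for 25 of 68 members (36.8%), against 21.3% of 9122 protein-coding genes in the table. The YY1 core was found for 12 (17.6%), against 5.55%, and the NRF1 core for 7 (10.3%), against 4.57%. From 60 bases before to 50 after the start, the ETS core was found for 21 members (30.9%), against 14.4%. Shown here are the promoter of Mrps23, the member with the lowest p of any contrast, that of Mrpl3, which varied least between libraries, that of Mrps12, which varied most, and that of Mrps11, which reaches into its neighbour Mrpl46. Capitals mark the ETS core (CCGGAAG or CTTCCGG) and the YY1 core (GCCATCTT). A match describes the letters and is not evidence that a factor binds there.
Mrps23 (chr11:88204138-88204437, plus strand): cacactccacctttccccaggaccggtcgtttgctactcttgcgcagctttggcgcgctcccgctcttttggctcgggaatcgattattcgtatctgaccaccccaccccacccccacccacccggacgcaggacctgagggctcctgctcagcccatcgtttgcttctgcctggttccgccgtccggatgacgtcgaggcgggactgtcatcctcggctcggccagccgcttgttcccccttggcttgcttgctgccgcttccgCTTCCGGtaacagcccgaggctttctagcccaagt
Mrpl3 (chr9:105053018-105053317, plus strand): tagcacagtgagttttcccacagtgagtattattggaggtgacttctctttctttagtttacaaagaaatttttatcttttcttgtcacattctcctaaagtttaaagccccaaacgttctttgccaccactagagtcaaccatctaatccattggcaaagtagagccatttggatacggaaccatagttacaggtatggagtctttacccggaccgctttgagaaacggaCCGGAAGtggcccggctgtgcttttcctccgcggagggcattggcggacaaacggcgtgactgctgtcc
Mrps12 (chr7:28741772-28742071, minus strand): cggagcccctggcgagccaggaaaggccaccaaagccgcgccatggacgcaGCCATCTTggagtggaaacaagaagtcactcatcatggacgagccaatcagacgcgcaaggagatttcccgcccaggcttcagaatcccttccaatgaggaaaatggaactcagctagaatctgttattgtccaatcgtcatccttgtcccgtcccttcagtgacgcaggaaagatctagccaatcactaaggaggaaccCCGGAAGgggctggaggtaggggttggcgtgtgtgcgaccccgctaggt
Mrps11 (chr7:78782881-78783180, plus strand): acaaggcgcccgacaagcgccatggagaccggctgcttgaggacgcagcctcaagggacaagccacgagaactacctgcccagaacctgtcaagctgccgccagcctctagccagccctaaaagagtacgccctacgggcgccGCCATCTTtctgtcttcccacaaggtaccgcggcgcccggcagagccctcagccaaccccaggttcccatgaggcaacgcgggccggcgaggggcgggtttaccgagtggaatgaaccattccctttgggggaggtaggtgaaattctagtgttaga
The ETS letters began 15 bases after the start in Mrps23, 19 bases before it in Mrpl3 and 1 base after it in Mrps12. The YY1 letters began 199 bases before the start in Mrps12 and 107 before it in Mrps11. The promoter of Mrpl46 (chr7:78783040-78783339, minus strand) overlaps that of Mrps11 and held none of the 3 strings on either strand in its own window.

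Before the members, the libraries themselves were compared. Depth, in reads recovered from the values, was between 18.5 M and 43.4 M (M, 1e6) in 10 libraries but only 3.21 M in cKO liver library 2 and 3.87 M in control liver library 3. The targeted gene followed the labels in both tissues. Ets1 averaged 4602 ± 1107 in cKO liver and 17737 ± 1587 in control liver (SD, n = 3 each; limma adjusted p = 0.0012), and 8225 ± 3176 in cKO thymus and 23745 ± 4279 in control thymus (limma adjusted p = 0.0095). All 10 iNKT1 identity genes were present, with a summed value between 111072 and 173015, whereas the sums of the other lists (hepatocyte, endothelial, myeloid, B cell and immature thymocyte) stayed between 0 and 1639. Of those lists, the endothelial one had 1 of its 6 genes in the table, Pecam1, which had values between 1.16 and 88.0 in cKO liver and between 458 and 671 in control liver. The hepatocyte sum, over 4 of 6 listed genes, lay between 714 and 1472 in cKO liver and between 1269 and 1639 in control liver. In cKO thymus and control thymus the same sum ran between 4.13 and 430, and between 110 and 868. Their part in the results on the members was not tested.

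All values here are deposited values, which are on a scale adjusted for library size and have no unit. A value under 0.1 in a library stands for no read, and 1 read was worth between 0.615 and 6.66. The members were expressed at a moderate level. Over the 12 libraries the median member had between 54 reads (control liver library 3) and 577 reads (cKO liver library 1), where counting alone gives an error of between 4.16% and 13.6% (1 SD). Per kilobase of exon, the members' mean values ran from 11.6 to 927. The highest were Mrpl18 (927 per kilobase), which binds the structural tRNA of the central protuberance, Mrps21 (904) and Mrpl36 (730), all kept from bacteria. The lowest were Mrps34 (11.6), Mrpl53 (20.4), a stalk protein, and Mrpl48 (35.2), a protein of the central protuberance, all added in mitochondria. By mean value, not divided by length, the leading member of each class was Mrpl18 (1296) among bacterial large-subunit proteins, Mrpl49 (906) among added ones, Mrps17 (670) among bacterial small-subunit proteins and Mrps35 (701) among added ones. Mrps36 averaged 101. By the same mean Mrpl10 (1059) led the stalk, Mrpl24 (722) the rim of the exit tunnel and Mrps18a (396) the 3 S18 paralogs, while Mrpl18 also led the central protuberance.

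**Figure D1:**
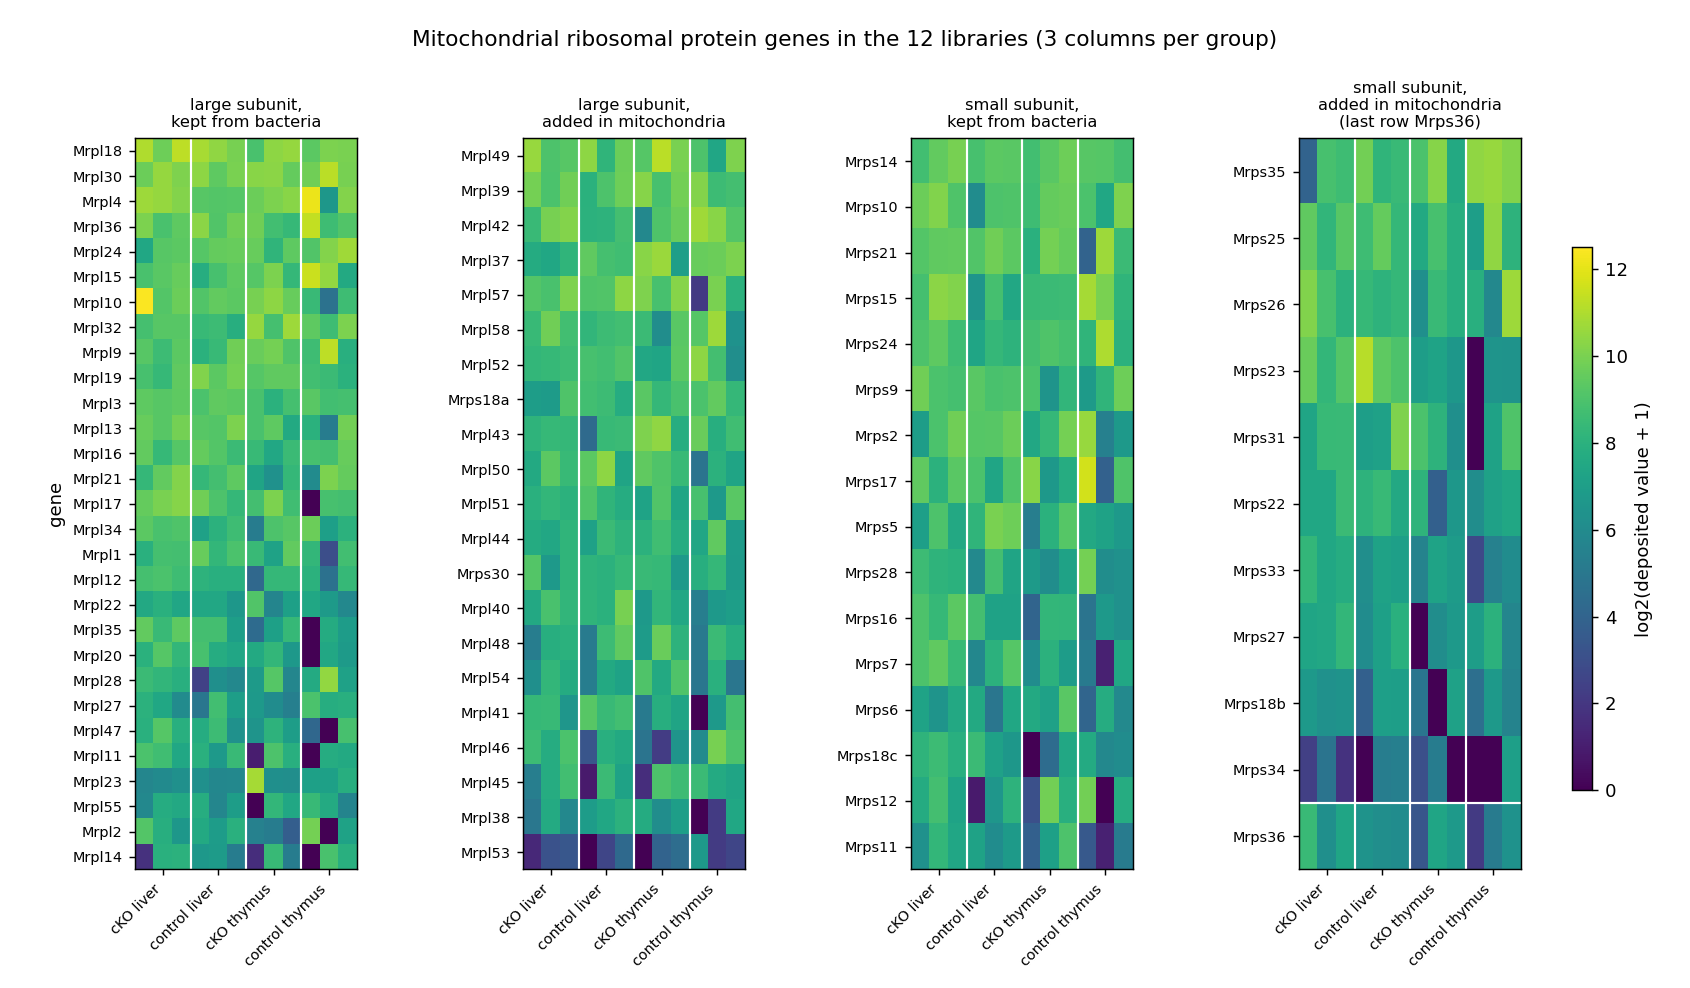
Each row is a member and each column a library, in the order cKO liver, control liver, cKO thymus and control thymus with 3 libraries each; colour is log2(deposited value + 1). Dark cells, values near 0, gather in cKO thymus library 1 and control thymus libraries 1 and 2, where 10, 13 and 9 members had a value under 10.

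As a set, the members took a small and similar share of each library. Their summed values were 0.145%, 0.161% and 0.162% of all values in cKO liver, and 0.111%, 0.123% and 0.139% in control liver. Mrpl10 alone made 14.3% of the members' sum in cKO liver library 1, and at most 3.82% in any other library. With Mrpl10 left out, a step chosen after its values were seen, the shares were 0.124%, 0.158% and 0.159% in cKO liver and 0.109%, 0.12% and 0.136% in control liver, so the groups overlapped. Leaving both mitochondrial rRNAs, mt-Rnr1 and mt-Rnr2, out of the total gave between 0.209% and 0.225% in cKO liver and between 0.167% and 0.202% in control liver, and without Mrpl10 as well between 0.181% and 0.2203% in cKO liver and between 0.164% and 0.198% in control liver, with overlap. In cKO thymus the shares were 0.114%, 0.143% and 0.128%, and in control thymus 0.143%, 0.111% and 0.128%, and the groups overlapped throughout. In bulk RNA, a smaller share of cells with these transcripts and less of them per cell cannot be told apart. A sum is led by its highest genes, so the median member was compared with the median of all tested genes in the same library. On the log2 scale this difference was 0.05, 0.15 and 0.11 in cKO liver and -0.16, -8.6e-06 and -0.08 in control liver. It was -0.71, -0.11 and -0.21 in cKO thymus and -0.08, -0.34 and -0.48 in control thymus. The 3 cKO liver libraries were thus the only ones of the 12 in which the median member stood above the median gene.

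**Figure D2:**
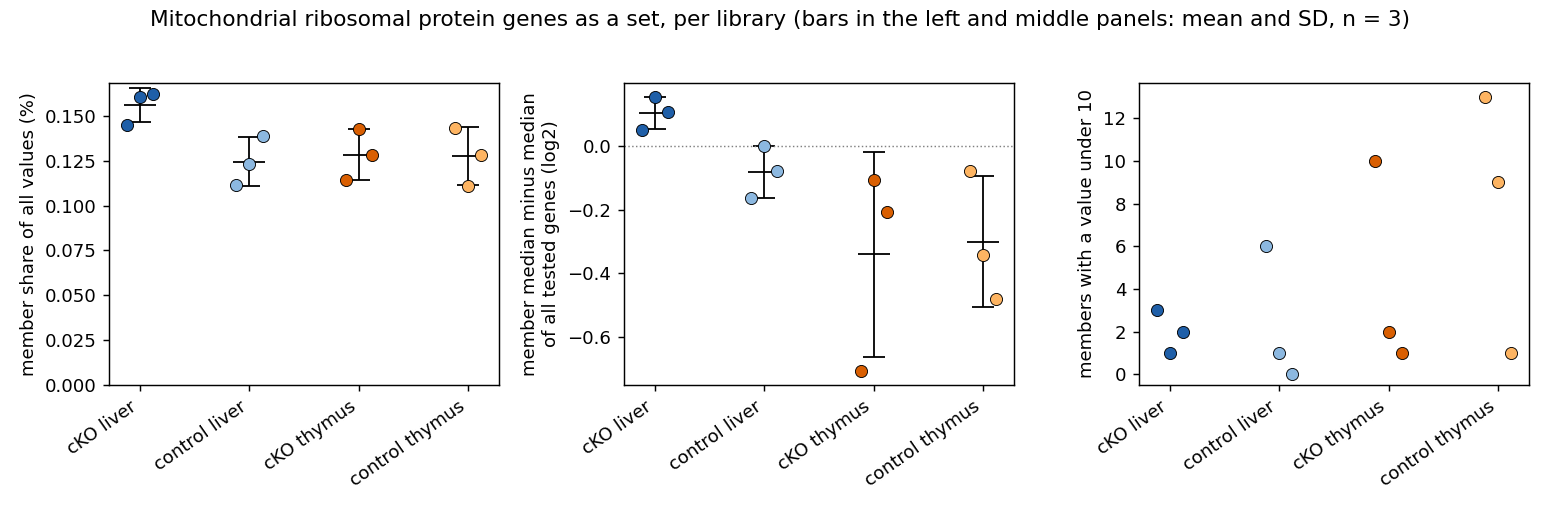
Left, the members' summed share of all deposited values in percent; middle, the median member minus the median of all tested genes on the log2 scale; right, the number of members with a value under 10. Points are libraries and bars the mean and SD (n = 3); the left panel has cKO liver between 0.145% and 0.162% and control liver between 0.111% and 0.139%, and the gap between them closes when Mrpl10 is left out (0.124% in cKO liver library 1, 0.136% in control liver library 3).

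The first comparison asked which members changed when Ets1 was deleted in liver iNKT1 cells. No single member passed the test. More members had a higher than a lower mean log2 value in cKO liver, and Mrps15 and Mrpl28 had the lowest p. Across the members 52 of 77 had a positive log2 fold change (67.5%), against 51.5% of all tested genes, with a median of 0.36 against 0.02. With limma, 0 members were called at an adjusted p under 0.05, where 0.505% of all tested genes were called. At an unadjusted p under 0.05 there were 2 members, both higher, where 6.92% of all genes passed. edgeR's quasi-likelihood test and DESeq2, run on recovered reads, also called 0 members, where they called 0.299% and 2.22% of the genes they tested. In 9 members all 3 cKO libraries lay above all 3 control libraries and in 3 below, 12 of 77 in all, where 18.6% of all tested genes did not overlap (9.99% higher, 8.66% lower). That share of members is near the background. The 9 were Mrpl4, Mrpl12, Mrpl28, Mrpl32, Mrpl34, Mrps10, Mrps15, Mrps24 and Mrps33, and the 3 were Mrpl37, Mrpl41 and Mrpl52.

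Mrps15, a small-subunit protein that binds the rRNA directly, had values of 456, 1292 and 1127 in cKO liver, against 92.2, 453 and 177 in control liver. All 3 cKO libraries were the higher, though the nearest pair, 456 and 453, almost met, and the log2 fold change was 2.16 ± 0.83 (SE; limma adjusted p = 0.46). Mrpl28, a bacterial large-subunit protein, had 365, 300 and 235 in cKO liver and 4.32, 72.9 and 55.7 in control liver, a wide gap between the groups. Its log2 fold change was 3.39 ± 1.38 (limma adjusted p = 0.53), and 2.19 without control library 1. Mrpl12, which forms the stalk that recruits elongation factors, had 442, 499 and 397 in cKO liver and 265, 232 and 237 in control liver. The libraries of each group agreed closely for Mrpl12, and its log2 fold change was 0.86. It was not called, and no stalk member had a limma adjusted p below 0.999 in liver. Mrps12 had 207, 432 and 152 in cKO liver and 0.846, 95.2 and 267 in control liver, so that its positive fold change (2.72 ± 2.32, limma adjusted p = 0.998) came with overlapping groups and with control library 1 near 0, without which it was 0.58. Mrpl46, of the central protuberance, had 379, 214 and 503 in cKO liver and 8.67, 239 and 195 in control liver, also overlapping.

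Among members with negative fold changes, Mrps35 had 14.7, 461 and 393 in cKO liver and 913, 291 and 358 in control liver. Its change of -1.69 ± 1.07 rested on cKO library 1 and was -0.10 without it. Mrps5, at the entry of the mRNA channel, had 131, 513 and 183 in cKO liver and 286, 1005 and 858 in control liver, overlapping at the low end. Mrpl38 had 30.04, 199 and 55.9 in cKO liver and 118, 174 and 259 in control liver, also overlapping. Mrpl37 had 208, 175 and 288 in cKO liver and 695, 457 and 407 in control liver, with no overlap, and its log2 fold change was -1.20 ± 0.84 (limma adjusted p = 0.95).

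The medians in liver differed by role, with no test of that difference. Bacterial small-subunit members had a median log2 fold change of 0.70 with 13 of 16 positive, and bacterial large-subunit members 0.38 with 23 of 29 positive. Added large-subunit members had a median of -0.13 with 9 of 21 positive, and added small-subunit members 0.08 with 6 of 10 positive. All 5 stalk members were positive (median 0.71), as were 5 of 6 at the rim of the exit tunnel (median 0.62), against 4 of 9 in the central protuberance (median -0.15). Of the 5 stalk members only 1, Mrpl12, had groups that did not overlap. Mrpl53 was near the floor, and its mean value was 6.34 in cKO liver and 7.89 in control liver. Mrpl10 had 5553, 561 and 827 in cKO liver and 548, 725 and 643 in control liver, so that 1 library stood out. All tested genes had a median of 0.02, and no list had a called member.

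In thymus the members stood close to all genes. Their median log2 fold change was 0.25 and that of all tested genes 0.24, with 43 of 77 positive (55.8%, against 57.7%). limma called 0 members, where 0.636% of all genes were called. At an unadjusted p under 0.05 there were 5 higher and 1 lower, where 13.2% of all genes passed. edgeR, which called 0.391% of all genes, also called 0 members, whereas DESeq2, which called 5.13% of the genes it tested, called 1, Mrpl46. Groups did not overlap for 4 members that were higher (Mrpl10, Mrpl19, Mrpl50 and Mrps23) and 2 that were lower (Mrpl16 and Mrpl27), where 14.5% of all genes did not (7.6% higher, 6.89% lower).

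Mrpl10, which anchors the stalk, had the lowest p of the members in this contrast. It had 985, 1327 and 767 in cKO thymus and 351, 25.5 and 397 in control thymus, so every cKO library was higher. The log2 fold change was 2.69 ± 0.96 (limma adjusted p = 0.23), and 1.42 without control library 2. Mrpl46 had 26.7, 3.73 and 86.9 in cKO thymus and 63.9, 979 and 518 in control thymus, overlapping through 1 library of each group. Its log2 fold change of -3.83 ± 1.56 was not called by limma (adjusted p = 0.29), and DESeq2 gave -3.76 with an adjusted p of 0.043. Mrps11, which overlaps Mrpl46 on the other strand in the annotation used for exons, had a positive fold change. Mrps11 had 13.4, 138 and 507 in cKO thymus and 10.1, 1.19 and 35.2 in control thymus, with overlap, and a log2 change of 3.39 ± 1.65 (limma adjusted p = 0.38).

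In 4 further members 1 library had no read, and the fold change moved when it was left out. Mrpl38 had 206, 70.1 and 127 in cKO thymus and 0.0211, 3.50 and 172 in control thymus. Its log2 fold change of 3.74 ± 1.76 (limma adjusted p = 0.37) was 2.15 without control library 1, the one with no read, and -0.48 without control libraries 1 and 2 both. It was 5.85 and called (adjusted p = 0.049) without control library 3. Mrpl17, of the exit tunnel, had 435, 1039 and 407 in cKO thymus and 0.0213, 457 and 436 in control thymus, and without control library 1 its log2 fold change fell to 0.35. Mrps27, an RNA-binding pentatricopeptide repeat protein, had 0.00464, 70.1 and 104 in cKO thymus and 124, 257 and 51.5 in control thymus, and without cKO library 1 its change was -0.47. Mrps18c, an S18 paralog, had 0.00465, 20.5 and 180 in cKO thymus and 196, 56.7 and 66.5 in control thymus, and its change of -2.54 was -0.55 without cKO library 1. In each of these the groups overlapped.

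By role in thymus, differences between medians were again not tested. Added small-subunit members had a median of -0.52 with 4 of 10 positive and bacterial small-subunit members 0.40 with 11 of 16 positive. Large-subunit medians were 0.15 for bacterial members (15 of 29 positive) and 0.25 for added ones (12 of 21 positive), beside 0.24 for all tested genes. All 3 S18 paralogs (Mrps18a, Mrps18b and Mrps18c) were negative, with a median of -1.60, and none was called. That median was the change of Mrps18b, which had 27.7, 0 and 144 in cKO thymus and 22.4, 104 and 46.4 in control thymus. Its group means were close (57.2 and 57.6), and cKO library 2 had no read. Mrps18c also had a cKO library with no read, as given above. Mrps18a had 636, 319 and 488 in cKO thymus and 502, 717 and 317 in control thymus, with overlap.

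**Figure D3:**
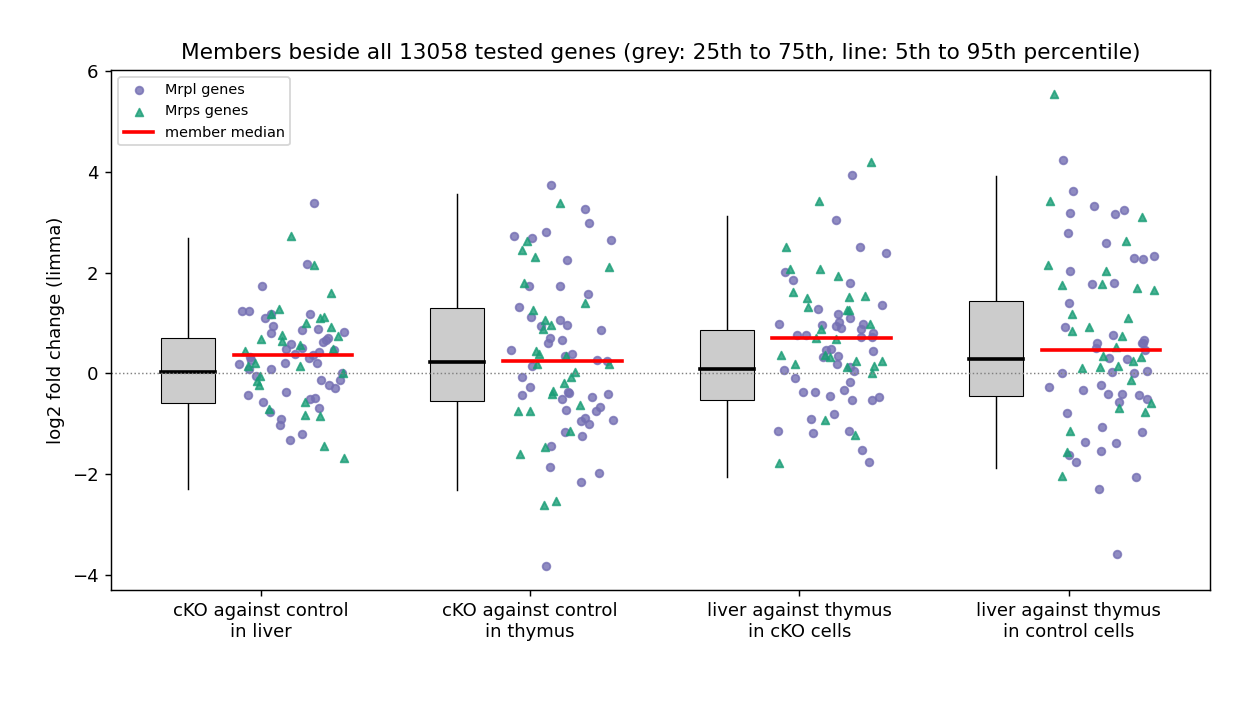
Points are the limma log2 fold changes of the 77 members (circles Mrpl, triangles Mrps) with their median in red, beside a grey box for all tested genes (25th to 75th percentile, median in black, thin line from the 5th to the 95th). The red and black medians are 0.36 and 0.02 for the genotype contrast in liver, 0.25 and 0.24 in thymus, 0.71 and 0.09 for liver against thymus in cKO cells, and 0.47 and 0.28 in control cells.

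Taking both tissues in 1 contrast, the genotype medians were 0.20 for the members and 0.14 for all genes, with 49 of 77 positive. limma called 0 members, where 2.27% of all genes were called, and 1 member passed an unadjusted p under 0.05, where 13.7% of all genes passed. That member was Mrpl10, with a log2 change of 1.90 ± 0.68 (limma adjusted p = 0.18). edgeR called 0 members, where it called 1.94% of all genes. DESeq2 called Mrpl10 (1.90, adjusted p = 0.030), where it called 6.12% of the genes it tested. In liver Mrpl10 had 5553, 561 and 827 in cKO cells and 548, 725 and 643 in control cells, so that 1 library held most of that tissue's part. Without cKO liver library 1, the change over both tissues was 1.40 (limma adjusted p = 0.45).

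The genotype effect in liver minus that in thymus had a member median of 0.12 and an all-gene median of -0.20. limma called 0 members, where 0.00766% of all genes (1 gene) were called. At an unadjusted p under 0.05 there were 4 members, all positive, where 5.38% of all genes passed. edgeR and DESeq2 called 0 members, where they called 0.023% and 0.894% of the genes they tested. The 4 were Mrps15 (3.29 ± 1.17), Mrpl46 (6.0 ± 2.2), Mrpl42 (3.12 ± 1.27) and Mrpl28 (4.57 ± 1.95), with limma adjusted p-values of 0.91 each. For Mrps15 the thymus values were 357, 366 and 374 in cKO cells and 1790, 1012 and 290 in control cells, so that 2 control libraries were above and 1 below all 3 cKO libraries and the groups overlapped. For Mrpl28 they were 110, 592 and 51.5 in cKO thymus and 197, 1415 and 139 in control thymus, where the groups overlapped. A difference of the members between the tissues in their response to the deletion was therefore not shown. Their median minus that of all genes was 0.31, and -0.03 without cKO thymus library 1.

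**Figure D4:**
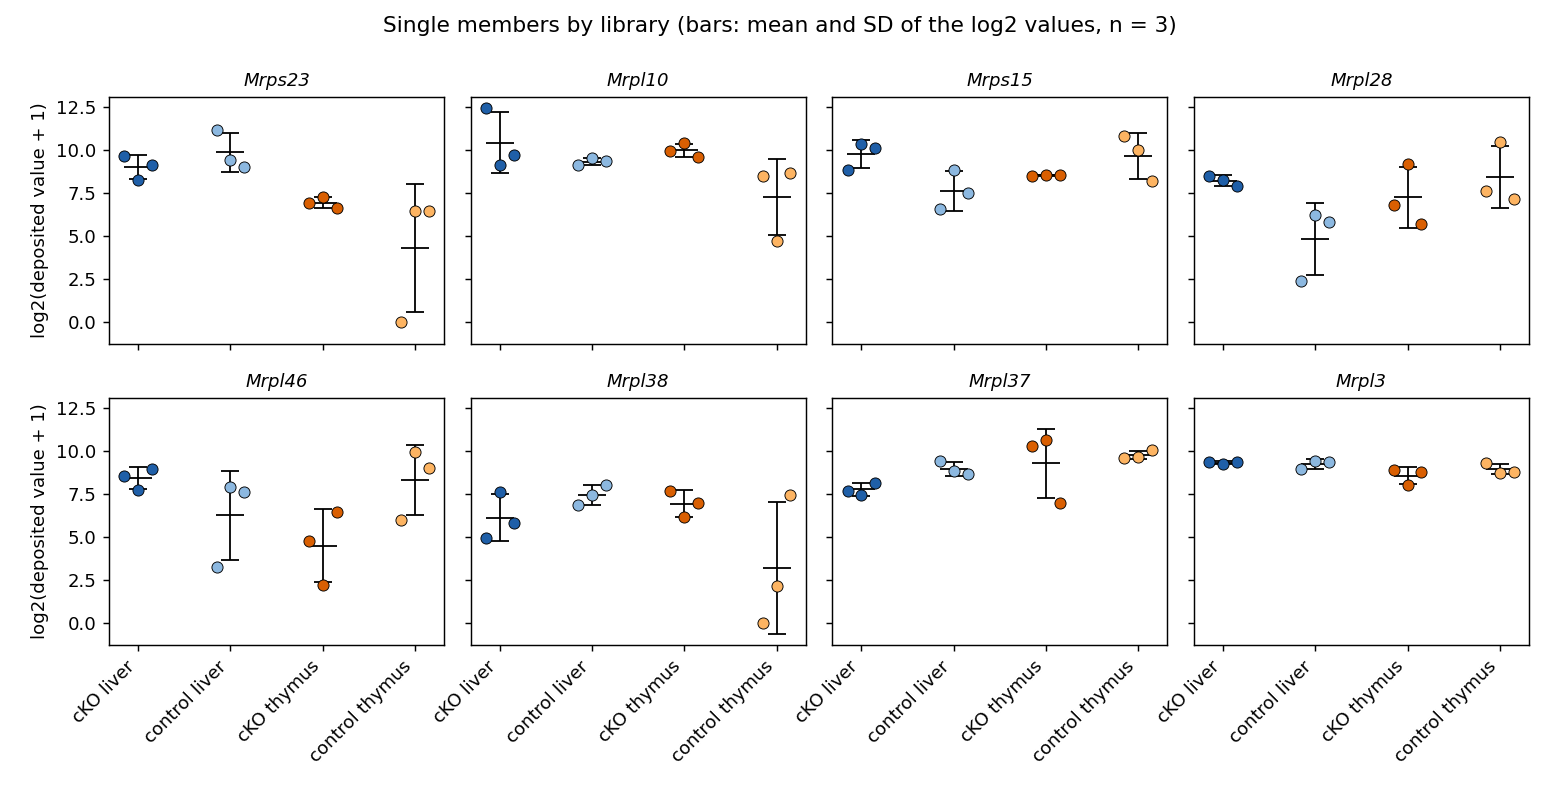
Each panel is a member, each point a library on the log2(deposited value + 1) scale, with bars for the mean and SD (n = 3), in the order cKO liver, control liver, cKO thymus and control thymus. Mrps23 lies higher in all 6 liver libraries than in all 6 thymus libraries, whereas Mrpl3 stays within a narrow band and Mrpl38 has values of 0.0211 and 3.50 in 2 control thymus libraries and Mrpl46 of 3.73 in 1 cKO thymus library.

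The tissues were compared next. In control cells, 51 of 77 members had a positive log2 fold change of liver over thymus (66.2%, against 59.5% of all tested genes), with a median of 0.47, against 0.28 for all genes. limma called 0 members, where 0.605% of all genes were called. At an unadjusted p under 0.05 there were 8 higher and 2 lower, where 12.7% of all genes passed. edgeR called 0, where it called 0.375% of all genes, and DESeq2 called 2, Mrps23 higher and Mrpl28 lower, where it called 3.89% of the genes it tested. Libraries did not overlap for 9 members higher in liver and 6 lower, where 15.4% of all genes did not overlap (9.55% higher, 5.83% lower). In cKO cells 57 of 77 had a positive one (74.0%, against 53.7%), with a median of 0.71 against 0.09. There limma, edgeR and DESeq2 called 0 members, where they called 0.222%, 0.138% and 2.19% of the genes they tested. At the same time 2 members, both higher, passed an unadjusted p under 0.05, where 7.6% of all genes passed. Libraries did not overlap for 13 members, all higher in liver, and no member lay wholly lower, where 8.81% of all genes were wholly higher and 7.26% wholly lower (16.1% in all). The 13 were Mrpl2, Mrpl3, Mrpl12, Mrpl35, Mrpl46, Mrps7, Mrps15, Mrps16, Mrps18c, Mrps23, Mrps27, Mrps28 and Mrps33. Thymus library 1 of the cKO group weighed on this contrast: the members' median minus that of all genes was 0.62 with it and 0.15 without it. These tissue contrasts share samples with the genotype contrasts.

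Mrps23, a small-subunit protein added in mitochondria (ENSMUSG00000023723, chr11:88204388-88211507, plus strand), was the member with the lowest p. It had 796, 307 and 567 in cKO liver and 2302, 669 and 521 in control liver. In thymus it had 122, 152 and 97.9 in cKO cells and 0.0213, 86.8 and 85.3 in control cells, the first of these from a library with no read. Every liver library was above every thymus library, the lowest liver value being 307 and the highest thymus value 152. In control cells it averaged 1164 in liver and 57.4 in thymus, and limma gave a log2 fold change of 5.56 ± 1.43 (adjusted p = 0.091). DESeq2 gave 4.34 (adjusted p = 0.0022), and limma called it without control thymus library 2 or 3 (adjusted p = 0.046 and 0.025). The other 10 of the 12 fits with 1 library left out did not call it (limma adjusted p at most 0.34). Of 11 further settings (other tests, scalings, filters, pseudocounts or sets of libraries), only DESeq2 called it. Without control thymus library 1, the one with no read, the change was 3.42. In cKO cells the change was 2.08.

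Because both genotypes gave Mrps23 the same order, liver was also set against thymus over both genotypes, a contrast chosen after its values had been seen. The log2 fold change of Mrps23 was 3.82 ± 1.011 (limma adjusted p = 0.069). Without control thymus library 1, which had no read, it was 2.75 and called (adjusted p = 0.030). It was also called without control thymus library 2 or 3 (adjusted p = 0.028 and 0.030), with a pseudocount of 10 (0.030), after quantile normalization (0.022) and by DESeq2 (0.00056). The other 9 of the 12 fits with 1 library left out did not call it (limma adjusted p at most 0.18). Of 10 further settings (other tests, scalings, filters, pseudocounts or sets of libraries), only the 3 just given called it. limma called 0 members in this contrast as run, where 1.39% of all genes were called, and 7 members (6 higher, 1 lower) passed an unadjusted p under 0.05, where 14.3% of all genes passed. edgeR called 0, where it called 1.07% of all genes, and DESeq2 called 4.89% of the genes it tested. Mrps23 was the only member whose 6 liver libraries did not overlap its 6 thymus libraries, as 1.48% of all genes did not (0.888% higher, 0.59% lower). The other 5 members higher at an unadjusted p were Mrpl35 (2.91), Mrps18c (2.56), Mrps7 (2.53), Mrps16 (1.91) and Mrpl40 (1.52), and the 1 lower was Mrps35 (-1.67).

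Other members had large tissue fold changes in 1 genotype, none of them called by limma with all 12 libraries. Mrpl28 was lower in control liver (4.32, 72.9 and 55.7) than in control thymus (197, 1415 and 139), with no overlap and a log2 change of -3.59 ± 1.38 (limma adjusted p = 0.28). DESeq2 called it (-3.77, adjusted p = 0.035). Mrpl41 had 602, 350 and 423 in control liver and 0.0212, 108 and 432 in control thymus, and its fold change (3.62 ± 1.70) shrank to 1.05 in the fit without control thymus library 1. Mrpl45, which tethers the ribosome to the inner membrane, had 0.846, 362 and 146 in control liver and 371, 201 and 158 in control thymus. Its fold change of -2.31 ± 2.01 became 0.02 without control liver library 1. Mrpl38 gave 4.25 ± 1.76 in this contrast, and it was called without control thymus library 3 (6.36, adjusted p = 0.042). Mrpl46 had 8.67, 239 and 195 in control liver and 63.9, 979 and 518 in control thymus, with overlap.

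In cKO cells, Mrps18c had 276, 379 and 233 in liver and 0.00465, 20.5 and 180 in thymus, with no overlap and a log2 change of 4.21 ± 1.64 (limma adjusted p = 0.48), which was 2.22 without cKO thymus library 1, the one with no read. Mrpl46 had 379, 214 and 503 in cKO liver and 26.7, 3.73 and 86.9 in cKO thymus, also with no overlap (3.94 ± 1.56, limma adjusted p = 0.50). Mrps27 had 164, 180 and 312 in cKO liver, above its 3 cKO thymus values given earlier (3.43 ± 1.65, limma adjusted p = 0.66), and its change was 1.29 without cKO thymus library 1, which had no read. Mrps35 was lower in cKO liver, with 14.7, 461 and 393 against 504, 1210 and 190 in cKO thymus, and overlapped. Mrpl37 was lower too, with 208, 175 and 288 in cKO liver and 1239, 1581 and 127 in cKO thymus, overlapping through 1 thymus library. Mrpl23, at the rim of the exit tunnel, had 51.6, 61.3 and 75.7 in cKO liver and 1800, 74.7 and 71.4 in cKO thymus, so that 1 library made its fold change of -1.77 ± 1.38, which was -0.23 without that library.

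By role over both genotypes, added small-subunit members had a median log2 fold change of 1.39 between liver and thymus with 9 of 10 positive, and bacterial small-subunit members 0.79 with 12 of 16 positive. Bacterial large-subunit members had 0.53 with 21 of 29 positive, and added large-subunit members 0.03 with 11 of 21 positive. All tested genes had a median of 0.20. The differences between roles were not tested. Of the added small-subunit members, Mrps18b, Mrps23, Mrps27, Mrps31 and Mrps34 had a thymus library with no read. Such a library can enlarge a fold change. Mrps34 was positive on the log2 scale, though its mean value was lower in liver. It averaged 11.1 in cKO liver and 26.3 in control liver, and 14.5 in cKO thymus and 44.1 in control thymus. Taken by name, Mrps genes had a median of 0.89 (23 of 29 positive) and Mrpl genes 0.44 (31 of 48 positive).

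The spread between libraries set what could be seen. Within a group, the median member's SD on the log2(value + 1) scale was 0.62 in cKO liver, 0.74 in control liver, 1.04 in cKO thymus and 1.76 in control thymus. All tested genes had 0.66, 0.74, 0.94 and 1.35 in the same order, so the members varied more than the median gene in thymus and about as much in liver. In control thymus 39 of 77 members had a highest library over 10 times the lowest (50.6%, against 40.6% of all genes), and in cKO liver 4 did (5.19%, against 20.2%). Members with a value under 10 numbered 3, 1 and 2 in the 3 cKO liver libraries and 6, 1 and 0 in control liver, and 10, 2 and 1 in cKO thymus and 13, 9 and 1 in control thymus. The shallow libraries, cKO liver 2 and control liver 3, had 1 and 0 such members. In control thymus library 1, 10 members had no read among 25.02 M recovered reads, as had 20.7% of all genes. There 16.9% of members and 26.8% of all genes had a value under 10.

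**Figure D5:**
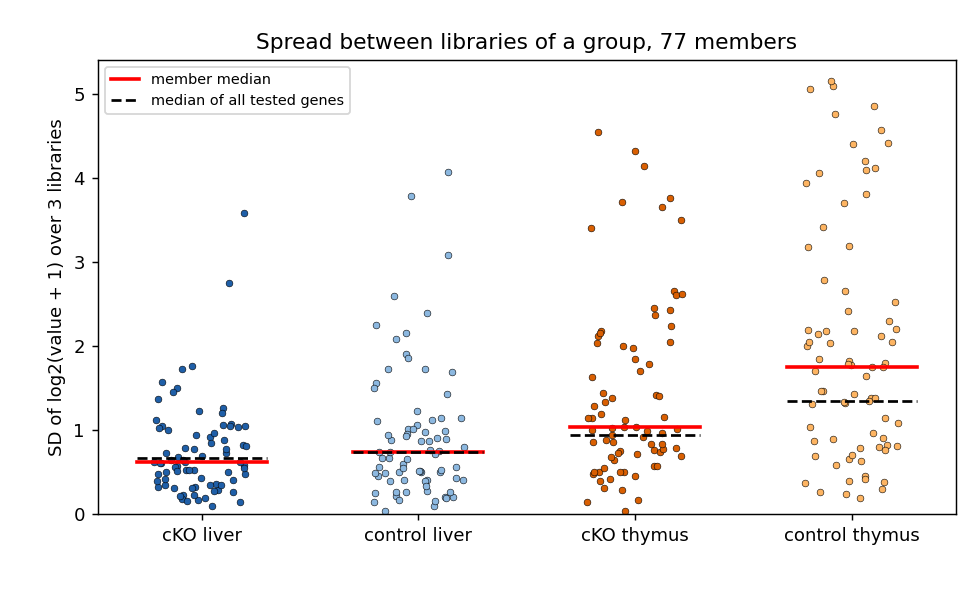
Each point is a member's SD of log2(deposited value + 1) over the 3 libraries of a group, with the member median in red and the median of all tested genes as a dashed line. The member medians are 0.62 in cKO liver, 0.74 in control liver, 1.04 in cKO thymus and 1.76 in control thymus.

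The steadiest member was Mrpl3, a protein near the peptidyl transferase centre. It had 672, 600 and 670 in cKO liver, 491, 697 and 654 in control liver, 481, 256 and 449 in cKO thymus and 627, 424 and 449 in control thymus, so that the whole range over 12 libraries was from 256 to 697. Mrpl19 and Mrps14 came next. Mrpl19 had 467, 334 and 697 in cKO liver and 1125, 652 and 962 in control liver, and 592, 700 and 702 in cKO thymus and 419, 369 and 251 in control thymus. It was thus higher in cKO cells in thymus, with no overlap (log2 fold change 0.97), and lower in cKO cells in liver with overlap (-0.90), and neither change was called. The least steady were Mrps12, Mrpl14 and Mrpl11. Mrpl11, at the base of the stalk, had 498, 406 and 176 in cKO liver and 245, 105 and 351 in control liver, whereas it had 1.03, 516 and 234 in cKO thymus and 0.0212, 212 and 192 in control thymus.

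At the median, pairs of members showed almost no correlation from library to library. After removing group means, the median correlation between pairs of members over the 12 libraries was 0.02. It was 0.02 between pairs of all tested genes as well, which share the same libraries. A median over pairs cannot show whether many members shifted together in a library. The median deviation of the members had an SD of 0.22 over libraries on the log2 scale. In cKO thymus library 1 the members' median minus that of all genes was -0.71, against -0.11 and -0.21 in libraries 2 and 3. The summed Mrpl values were between 1.96 and 3.13 times the summed Mrps values in every library, highest in cKO thymus library 1. With limma the median SE of a member's log2 fold change between 2 groups was 1.15, as it was for all genes. In cKO against control in liver and in thymus, no member had a 95% interval within a 2-fold change either way, and 7 in liver and 8 in thymus had one within a 4-fold change. Over both tissues 2 had one within a 2-fold change and 31 within a 4-fold change. The median half-width of those intervals in either tissue was 2.42 on the log2 scale.

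The other genes of the mitochondrial translation pathway were counted in the same fits. In liver, limma called 0 of the 5 ribosomal proteins with other names, 0 of 12 translation factors, 0 of 17 mitochondrial aminoacyl-tRNA synthetases, 0 of 26 assembly factors, 0 of 16 genes of mitochondrial DNA expression and mRNA handling, 0 of 9 mitochondrially encoded genes and 0 of 12 regulators of mitochondrial biogenesis for cKO against control. No gene of these lists passed an unadjusted p under 0.05 there. Of all tested genes, limma called 0.505% in that contrast, and 6.92% passed an unadjusted p under 0.05. Assembly factors had a median log2 fold change of 0.36, with 18 of 26 positive, the same median as the members. Mitochondrially encoded genes had -0.27, with 1 of 9 positive, and regulators -0.11, with 4 of 12 positive.

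In thymus 1 gene of these lists was called, where limma called 0.636% of all tested genes. Noa1, a GTPase needed to assemble the small subunit, fell in cKO thymus to 28.7, 20.5 and 158, against 905, 2005 and 455 in control thymus. All 3 cKO libraries were far below the controls, and the log2 fold change was -4.33 ± 0.94 (limma adjusted p = 0.043). Its fold change stayed between -5.21 and -3.77 when any 1 library was left out, but in 10 of those 12 fits, which estimate the spread from fewer libraries, the adjusted p rose above 0.05, to at most 0.14. edgeR gave an adjusted p of 0.10, limma on the 6 thymus libraries alone 0.66 and DESeq2 6.8e-05. In liver Noa1 had 385, 706 and 462 in cKO cells and 297, 395 and 473 in control cells, overlapping (log2 fold change 0.39). The difference of the 2 genotype effects was 4.72 ± 1.33 (limma adjusted p = 0.77). For cKO against control in thymus, the contrast in which Noa1 was called, the 29 Mrps genes had a median log2 fold change of 0.19, with 17 positive.

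Between tissues in control cells, where limma called 0.605% of all tested genes, the other gene called was Tefm, the elongation factor of mitochondrial transcription. It had 726, 184 and 283 in control liver, 1095 reads in all, and 0 reads in all 3 control thymus libraries, so that it was at least 113-fold higher in control liver when thymus is set to a floor of 3 reads per library (limma adjusted p = 0.025). Without any 1 of the control liver libraries, or without control thymus library 1, the adjusted p lay above 0.05, at most 0.12. edgeR gave 0.064, limma on the libraries of this contrast alone 0.18 and DESeq2 6.3e-07. In cKO cells Tefm had 9.14, 107 and 38.7 in liver and 46.2, 3.72 and 22.8 in thymus, which overlapped. Mitochondrially encoded genes had mostly negative fold changes between tissues. Over both genotypes 1 of 9 had a positive fold change, with a median log2 fold change of -0.53, and 5 were lower at an unadjusted p under 0.05, with 0 called. Of all tested genes, 14.3% passed an unadjusted p under 0.05 in either direction, and limma called 1.39%. mt-Cytb, the cytochrome b of complex III, averaged 60901 in liver and 89574 in thymus (log2 fold change -0.53 ± 0.15, limma adjusted p = 0.083).

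The gene with the highest mean of each list is given for scale. These were Ptcd3 (1317) among other ribosomal proteins, Gfm2 (1272) among translation factors, Lars2 (63524) among synthetases, C1qbp (1187) among assembly factors, Lrpprc (1745) in mitochondrial DNA expression and Gabpb2 (7184), a subunit of GABP, among regulators. The rRNA of the large subunit, mt-Rnr2, averaged 3.69e+06, and both rRNAs took between 23.2% and 34.2% of all values. The ratio of mt-Rnr2 to mt-Rnr1 was between 1.03 and 1.29 in cKO liver and between 0.918 and 0.967 in control liver, and between 0.921 and 1.31 in cKO thymus and between 1.02 and 1.11 in control thymus.

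Since the deleted factor reads the ETS core, members were finally described by that motif. In cKO against control liver the 25 members with CCGGAAG in the promoter had a median log2 fold change of 0.42 (17 of 25 positive), and the 43 without it 0.32 (30 of 43 positive). In cKO against control thymus the 25 had a median of -0.37 (11 of 25 positive) and the 43 had 0.27 (26 of 43 positive), beside 0.24 for all tested genes. limma called no member with the motif in either tissue. At an unadjusted p under 0.05, 0 of the 25 passed in liver and 1 in thymus, where 6.92% and 13.2% of all tested genes did. The difference between members with and without the letters was not tested. Of the 25, Mrpl53, Mrps18b, Mrps18c and Mrps27 had no read in a cKO thymus library, and Mrpl17, Mrps12 and Mrps23 none in a control one. Of the 43, Mrpl55 had no read in a cKO thymus library. Mrpl2, Mrpl11, Mrpl14, Mrpl20, Mrpl35, Mrpl41, Mrpl47 and Mrps31, also of the 43, had none in a control one. The part of these libraries in the thymus medians was not tested. Members whose promoter held the YY1 core had medians of 0.75 in liver (9 of 12 positive) and 0.30 in thymus (6 of 12 positive).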

How the data were processed

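The 12 libraries fell into 4 groups of 3 by the labels. Per the labels' protocols, RNeasy mini kits gave the RNA and Nugen's Ovation Ultralow kit the libraries. The build mm10, HTSeq 0.6.1, STAR, TopHat2 2.1.0, Trimmomatic 0.33 and DESeq2 are named, with no role or order, per the submitters' processing notes. The authors deposited 1 table of 14004 genes, a signal that is never negative and is adjusted for library size. Its values could be turned back into whole reads by inverting a negative binomial quantile adjustment (fitted dispersion 1.6), which put 95.3% of them within 0.1 of a whole read. That adjustment was inferred from the values. The reads gave depths and the input of edgeR 4.0.16 and DESeq2 1.42.0, used only as alternatives.

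Symbols and exons came from an annotation of GRCm38 (13359 identifiers matched, 645 did not). Genes that reached a value of 10 in 3 or more libraries (13058; 946 left out) went into limma 3.58.1 (R 4.3.3) as log2(value + 1), a pseudocount of 1, in 1 model of 4 group means with a trend of variance (degrees of freedom 8 residual and 10.7 prior). Tests were two-sided, with Benjamini-Hochberg adjustment over all tested genes and a threshold of 0.05. Fold changes on this scale understate the change of genes that are low in all libraries. A single library with no read can instead enlarge a fold change. For Mrpl17 in thymus it was 3.27, and 0.35 without the control library that had no read. Members and lists were chosen with earlier results of these data known. Besides members called, the text names the 3 largest fold changes each way in each contrast of 2 groups among members whose higher group averaged 50 or more, the 3 highest and 3 lowest per kilobase, the highest of each list and called genes of the other lists. Mrpl10, Mrps15 and the steadiest and least steady members, among others, were named after their values were seen. Same-numbered libraries were not paired by the labels and are treated as unpaired. The limma fit was tested on simulated counts with known changes, and the other steps were not tested in that way. Promoters are from RefSeq.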

Additional observations from a re-analysis of the deposited data

How the results depend on the processing

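The count of called members was 0 with limma in the 6 planned contrasts and stayed 0 with a pseudocount of 10, no low-value filter, TMM or quantile rescaling, rescaling without mitochondrial rRNA, only the libraries of a contrast, without the 2 shallow libraries, without control thymus libraries 1 and 2, and with edgeR. DESeq2 called 1 in thymus, 1 over both tissues and 2 between tissues in control cells. In the added contrast over both genotypes DESeq2, a pseudocount of 10 and quantile rescaling called 1 each. DESeq2 called more of all genes too, 619 against 83 in thymus and 273 against 66 in liver. Leaving out 1 library in turn gave counts from 0 to 1 in thymus, 0 to 2 between tissues in control cells and 0 to 1 over both genotypes, and 0 in the other 4 contrasts. The members' median minus that of all genes then ran from 0.20 to 0.34 in liver, -0.07 to 0.16 in thymus, 0.039 to 0.28 over both tissues, -0.025 to 0.39 for the difference of effects, 0.15 to 0.62 for liver against thymus in cKO cells, 0.04 to 0.36 in control cells and 0.29 to 0.51 over both genotypes. In cKO cells it was 0.34 with DESeq2 and 0.35 with edgeR, against 0.62; the cause was not tested. Named fold changes reversed in 2 cases. Mrpl38 in thymus was -0.48 without control thymus libraries 1 and 2, and Mrpl45 between tissues in control cells was 0.016 without control liver library 1, in a range from -3.79 to 0.016 when 1 library was left out. With the replicate number as a block, 0 members were called in every contrast and Noa1 in thymus lost its call (adjusted p = 0.057). The numbers did not pair the samples: over 18 same-numbered pairs the correlation of deviations ran from -0.10 to 0.08. Depth limits the median member to a counting error of 4.16% to 13.6% per library (1 SD), and its part in the spread was not tested. Without Mrpl10 in the sum, the members' shares in cKO liver and control liver overlapped.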

Other observations

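Mrpl23-ps1, a pseudogene left out of the members, had values of 2.37, 0.830 and 24.97 in cKO liver, 17.4, 10.3 and 7.12 in control liver, 69.8, 5.59 and 30.2 in cKO thymus and 6.75, 47.3 and 28.8 in control thymus. Its highest value and that of Mrpl23 itself (1800) were in the same library, cKO thymus 1.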
